A study of Mus musculus with 6 samples.

Results

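The genes described here are 10 genes that switch on the small GTPase Rac, with Rac1 itself among them: Tiam1, Tiam2, Vav2, Vav3, Prex1, Dock1, Dock4, Dock5, Elmo1 and Rac1. Their members are all ATAC-seq peaks that the deposited annotation names for 1 of these genes, at any distance, which gave 199 of 156733 peaks. The genes were chosen by measured values: the age difference of Tiam1 peaks in these same libraries led to the group. The Tiam1 values in the age contrast are therefore given as a description, without p-values, and nothing is supported with them. ATAC-seq maps accessible chromatin from the places where the Tn5 transposase can cut and tag DNA, and the libraries came from small-intestinal organoids, which are cultures of the gut epithelium grown from its stem cells. The young group (n = 3) came from C57BL/6JRj mice of 2 to 3 months and the aged group (n = 3) from C57BL/6JRj mice of 20 to 22 months, with no gene alteration and no treatment in the labels of either. All cultures were kept for 3 to 5 weeks, and replicates 1, 2 and 3 of both ages were taken at passages 4, 3 and 2. The labels do not say whether replicates stem from different animals, so p-values measure the spread between these samples, which may be technical.

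Rac1 is a molecular switch that is active while it holds GTP. Guanine nucleotide exchange factors load it with GTP, and active Rac drives actin assembly at membrane protrusions, cell-cell junctions and cell migration. In the intestine Rac1 has been linked to stem cell proliferation driven by Wnt signalling. Tiam1 and Tiam2 are exchange factors of the Dbl family, Tiam1 being a known Wnt target in intestinal tumours. Vav2 and Vav3 are exchange factors that are switched on by tyrosine phosphorylation, and Prex1 is one that responds to phosphoinositides and G protein subunits. Dock1, Dock4 and Dock5 belong to the separate DOCK family of exchange factors, and Elmo1 is the adaptor that binds DOCK proteins and brings them to the membrane.

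RefSeq promoter sequences (GRCm38.p6) were matched for 8 of the 10 genes, Dock5 and Rac1 having no entry. Those of 3 start sites on which the results below bear are printed as the 250 bases upstream of the start, 5′ to 3′ on the strand of the gene. The Tiam1 start is an internal one, not the 5′ end of the gene. It lies within the part of the gene where peaks were lower in aged organoids. The Vav3 start is also an internal one, whose peak was lower in each aged library, and the Dock4 start had the strongest peak of all members. Capitals mark matches, on either strand, to motifs searched by their letters: TGANTCA for the AP-1 factors, CTTTGAT for TCF and LEF factors, CAAAGTC for nuclear receptors like HNF4, AGATAA for the GATA family, TTTATNG for the intestinal CDX proteins and GGGCGG for the KLF and SP family.
Tiam1, chr16:89974700-89974949, minus strand: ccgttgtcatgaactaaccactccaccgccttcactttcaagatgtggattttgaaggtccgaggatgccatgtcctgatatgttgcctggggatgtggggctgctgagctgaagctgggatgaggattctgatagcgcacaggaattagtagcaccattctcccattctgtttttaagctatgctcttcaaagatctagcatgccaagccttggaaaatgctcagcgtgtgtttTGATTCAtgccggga
Vav3, chr3:109573757-109574006, plus strand: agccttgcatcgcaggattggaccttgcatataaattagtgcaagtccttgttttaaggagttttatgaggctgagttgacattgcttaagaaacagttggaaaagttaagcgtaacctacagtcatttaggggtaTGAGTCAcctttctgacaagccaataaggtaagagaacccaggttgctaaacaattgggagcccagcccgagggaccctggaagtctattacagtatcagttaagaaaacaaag
Dock4, chr12:40445803-40446052, plus strand: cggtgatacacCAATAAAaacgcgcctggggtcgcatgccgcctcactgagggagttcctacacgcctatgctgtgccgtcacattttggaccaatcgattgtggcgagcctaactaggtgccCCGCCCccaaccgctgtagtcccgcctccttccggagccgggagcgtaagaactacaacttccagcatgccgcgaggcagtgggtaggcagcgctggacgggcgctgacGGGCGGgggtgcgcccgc
The Tiam1 window holds 1 AP-1 match, as does the Vav3 window, and 6.75% of the 32817 RefSeq windows of this length hold at least 1. The other Tiam1 window (chr16:89818353-89818602) and the Vav3 windows starting at chr3:109340433 and chr3:109340511, not printed here, hold none. The Dock4 window holds 2 KLF/SP matches, found in 32.7% of windows, and 1 CDX match, found in 9.81%. It also holds 2 matches to a CTCF core (AGGNGGC, left in lower case), found in 25% of windows. GC content was 48.4% in the Tiam1 window, 42.4% in that of Vav3 and 64% in that of Dock4, against a median of 52.4% over all windows. No peak overlapped the Tiam1 window, the nearest one lying 601 bp away, whereas the Vav3 and Dock4 windows each lay under a peak.

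Depth in peaks ranged from 19208483 to 26093521 counts over 5 of the libraries, but young replicate 1 reached only 7278161. In that library 5283 peaks had no count, whereas the others each had between 123 and 718 such peaks. Levels are given as CPM, which are counts scaled to a common library size with TMM factors, and differences as the log2 ratio of aged to young from edgeR's quasi-likelihood fit. The call rule was an adjusted p under 0.05 (Benjamini-Hochberg, over all 132055 peaks tested). Called peaks were 1.13% of these (0.51% lower and 0.619% higher in aged), and the median log2 fold change of all tested peaks was -0.01. With the replicate number as a block, 3523 peaks (2.67%) were called in place of 1491. Promoter peaks of intestinal epithelial markers were present for 11 of 14 genes, absent for Vil1, Muc2 and Dclk1, and summed to 291.5 to 338.8 CPM in young and 316.2 to 325.2 CPM in aged libraries. Of 11 immune markers 3 had a promoter peak (Cd68, Cd79a and Lyz2), with none at Ptprc, Cd3e or Spi1, among others. Their sums were 10.2 to 11.5 CPM in young and 9.59 to 10.8 CPM in aged libraries, mostly from Cd68 (means 9.67 and 9.53 CPM). The 6 of 8 stromal markers with a promoter peak summed to 23.7 to 31.2 and 27.4 to 32.9 CPM, and the 5 of 8 endothelial and neural ones to 17.5 to 23.2 and 19.4 to 21.5 CPM. Most of the stromal sums came from Pdgfra (means 18.6 CPM in young and 20.1 CPM in aged libraries). No marker peak of any list was called, and each list's sums overlapped between the ages. The part of cell composition in the results below was not tested.

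Of the 199 member peaks, 174 passed the filter on low counts and 8 were called, 7 lower and 1 higher in aged. Tiam1 held 6 of the lower ones among its 13 tested peaks, out of 17 in all. The 9 other genes together had 2 called peaks of 161 tested (1.24%), both of Vav3, beside the 1.13% of all tested peaks. Each aged library was below each young one in 15 of the 161 (9.32%) and above in 9 (5.59%), beside 7.09% and 7.66% of all tested peaks. Median log2 fold changes were -1.05 for Tiam1 and -0.04 for the peaks of the 9 other genes. Gene by gene, the medians were 0.02 for Tiam2, -0.13 for Vav2, -0.13 for Vav3, 0.04 for Prex1, -0.11 for Dock1, -0.18 for Dock4, 0.10 for Dock5, -0.04 for Elmo1 and 0.28 for Rac1. Most members were intronic: 130 of 199 (65.3%, against 42.5% of all peaks), with 54 intergenic (27.1% against 35.8%) and 10 in the promoter class (5.03% against 11.1%).

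**Figure D1:**
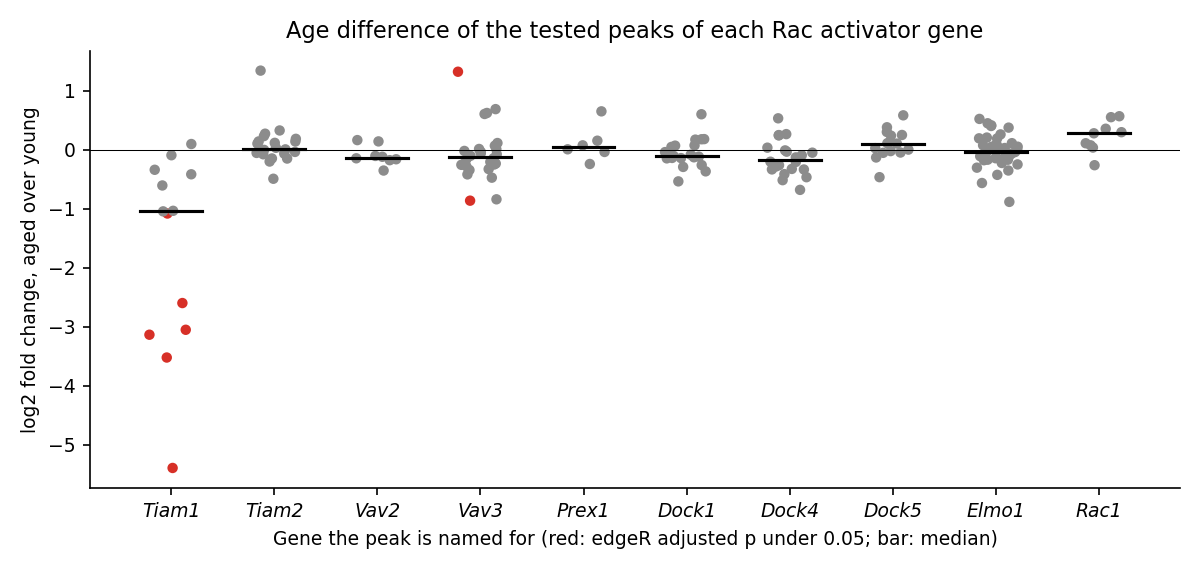
Log2 fold change (aged over young) of each tested peak, by the gene it is named for; each point is 1 peak, red points passed an edgeR adjusted p under 0.05 and the bar is the median of the gene. Tiam1 peaks reach down to -5.39, while the peaks of the other genes lie between -0.89 and 1.34.

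Tiam1 lies on the minus strand of chromosome 16, and in RefSeq it runs from 89787111 to 90145600 (358.49 kb). Its strongest member peak, in intron 1 (chr16:89962818-89963305), stood at 29.3, 17.2 and 36.8 CPM in young replicates 1 to 3 and at 0.500, 0.693 and 0.738 CPM in aged replicates 1 to 3. Each young library was far above each aged one, and the young libraries differed among themselves by more than the aged ones did. The log2 fold change was -5.39 (SE 0.36), a fitted level 42.0-fold lower in aged, which was the lowest log2 fold change of all 132055 tested peaks. In bulk libraries a site that is less open in each cell and a site that is open in fewer cells cannot be told apart.

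Towards the 3′ end, 3 peaks in intron 2 had the same pattern. The peak at chr16:89954254-89954969 stood at 9.12, 9.04 and 12.1 CPM in young and 1.09, 1.25 and 1.13 CPM in aged libraries (log2 -3.13, SE 0.19). The peak at chr16:89935476-89935762 stood at 5.89, 2.99 and 7.28 CPM in young and 0.773, 0.323 and 0.272 CPM in aged libraries (log2 -3.52, SE 0.38). The peak at chr16:89924430-89924887 stood at 5.47, 4.35 and 5.59 CPM in young and 0.818, 0.323 and 0.660 CPM in aged libraries (log2 -3.05, SE 0.26). In none of the 3 did the ages overlap, and the aged libraries kept a low signal that was not at 0. Ordered from the lowest fold change of all tested peaks, these 3 were at ranks 13, 3 and 17.

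The remaining called Tiam1 peaks were weaker or changed less. A short peak of 105 bp that the annotation puts in the promoter class (chr16:89960685-89960789) was counted 10, 24 and 21 times in the young and 3, 3 and 6 times in the aged replicates (log2 -2.60, SE 0.46). In intron 8 (chr16:89861139-89861911) the young libraries had 3.23, 4.12 and 3.74 CPM and the aged ones 1.68, 2.03 and 1.67 CPM (log2 -1.08, SE 0.21). That peak was lower in the aged library of each same-passage pair and was the called peak nearest to the 3′ end. These 6 peaks held 79.3, 69.4 and 81.6% of all Tiam1-named counts in the young libraries and 28.0, 26.8 and 27.6% in the aged ones. The 11 other Tiam1 peaks together held 14.2, 17.02 and 15.03 CPM in young and 12.9, 13.03 and 12.3 CPM in aged libraries.

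Of the 7 tested Tiam1 peaks that were not called, 6 had a negative log2 fold change. Of these, the nearest to the strongest peak on either side, at chr16:89950865-89951061 and chr16:89975551-89975953, had log2 fold changes of -1.04 (SE 0.35) and -1.05 (SE 0.42), at mean levels of 0.781 and 0.609 CPM. Beyond the 3′ end of the gene, the strongest uncalled peak (chr16:89773744-89774659) had 8.0, 8.93 and 7.91 CPM in young and 8.0, 8.36 and 7.1 CPM in aged libraries (log2 -0.10, SE 0.14). There the ages overlapped. The other 3 tested peaks of that flank had log2 fold changes of -0.34, -0.42 and 0.09, and the intron peak at chr16:89844671-89844844 one of -0.61. The 4 Tiam1 peaks that failed the filter had mean levels of 0.222 to 0.354 CPM, and 1 of them (chr16:89805743-89805816) had 0.421, 0.454 and 0.316 CPM in young and 0, 0 and 0.155 CPM in aged libraries.

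**Figure D2:**
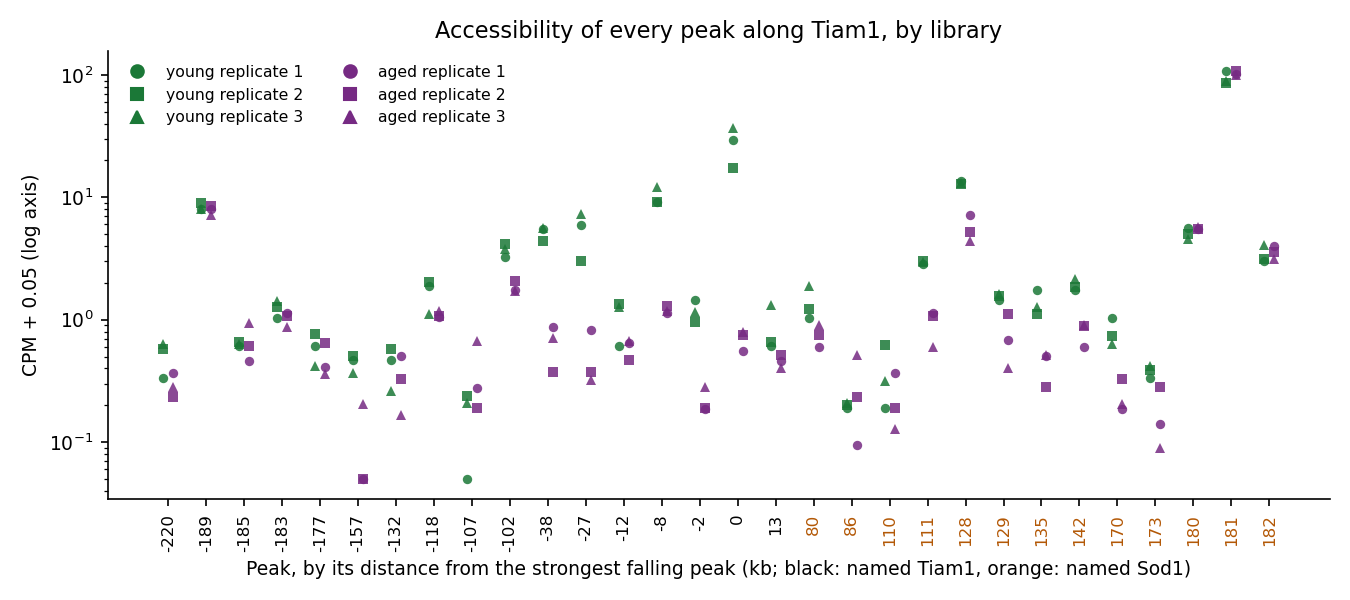
CPM + 0.05 (log axis) in each of the 6 libraries for all 30 peaks named Tiam1 or lying inside its RefSeq span, in genome order, with the distance in kb from the strongest falling peak on the x axis; green is young, purple is aged and the symbol gives the replicate. Young and aged libraries are widest apart at called peaks from -38 to 0 kb, and meet again at the strong peak at 181 kb.

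Naming by the nearest annotated start site hides a part of this locus. Inside the RefSeq span of Tiam1 lay 25 peaks, of which 12 were named Tiam1 and 13 Sod1, the gene of superoxide dismutase 1 that follows beyond the 5′ end. The Sod1-named ones were looked at after the Tiam1 values were known and get no p-value. Of the 10 that were tested, 4 passed the adjusted threshold and all 4 were lower in aged libraries, beside 0.51% of all tested peaks called lower. The strongest of them (chr16:90091169) had 13.5, 12.8 and 12.9 CPM in young and 7.18, 5.13 and 4.31 CPM in aged libraries (log2 -1.24). The peak at chr16:90073637 had 2.81, 2.95 and 2.90 CPM in young and 1.09, 1.02 and 0.543 CPM in aged libraries (log2 -1.73). The other 2, starting at 90098240 and 90104976, had log2 fold changes of -1.65 and -1.34. In all 4 the young libraries lay above the aged ones without overlap, as they did in 7.09% of all tested peaks. The calls at 90098240 and 90104976 were lost in DESeq2 and when 1 of certain libraries was left out (young replicate 1 or aged replicate 2 for the former, young replicate 3 or aged replicate 1 for the latter). After thinning, the calls at 90073637 and 90104976 were lost and the peak at 90098240 was not tested.

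Between the outermost called peaks, chr16:89861139-90105392 (244.254 kb), lay 16 peaks, 8 of each name. All 14 that were tested had a negative log2 fold change, from -5.39 to -0.97 with a median of -1.50. In 13 of the 14 each aged library was below each young one, and 10 were called, all lower. Over all tested peaks these shares were 7.09% and 0.51%. Because called peaks set the ends of the stretch, its counts are partly fixed by that choice and are descriptive. This stretch ended 40.2 kb before the 5′ end of the gene. Nearer to that end, a weak uncalled peak starting at 90132964 still had a log2 fold change of -1.86, and the last 3 had 0.17, 0.15 and 0.05. The middle one of these (chr16:90143577-90144894, named Sod1) was the strongest of the locus, with 107.4, 86.1 and 88.3 CPM in young and 102.6, 107.1 and 99.7 CPM in aged libraries. Its log2 fold change was 0.15 (SE 0.08), it was not called, and the ages overlapped. Further out, within 500 kb of the outermost Tiam1 peaks, 56 tested peaks named Sod1, Scaf4 or Hunk on the 5′ side had a median of -0.04 and none was called. On the 3′ side 4 peaks named for the keratin-associated protein genes Krtap7-1 and Krtap11-1 were tested, all with a negative log2 fold change, and 1 of Krtap7-1 was called lower (7.86, 6.20 and 5.22 CPM in young, 3.68, 3.79 and 3.22 CPM in aged libraries, log2 -0.80). In the RefSeq spans of the 9 other genes no peak named for a neighbouring gene was called. Tested among these were 7 in Tiam2, 22 in Vav2, 2 in Vav3, 19 in Prex1, 9 in Dock1 and 8 in Dock4. A further 13 lay in Dock5, 8 in Elmo1 and 2 in Rac1. Beside the 1.13% called among all tested peaks, the lack of a call among so few says little.

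**Figure D3:**
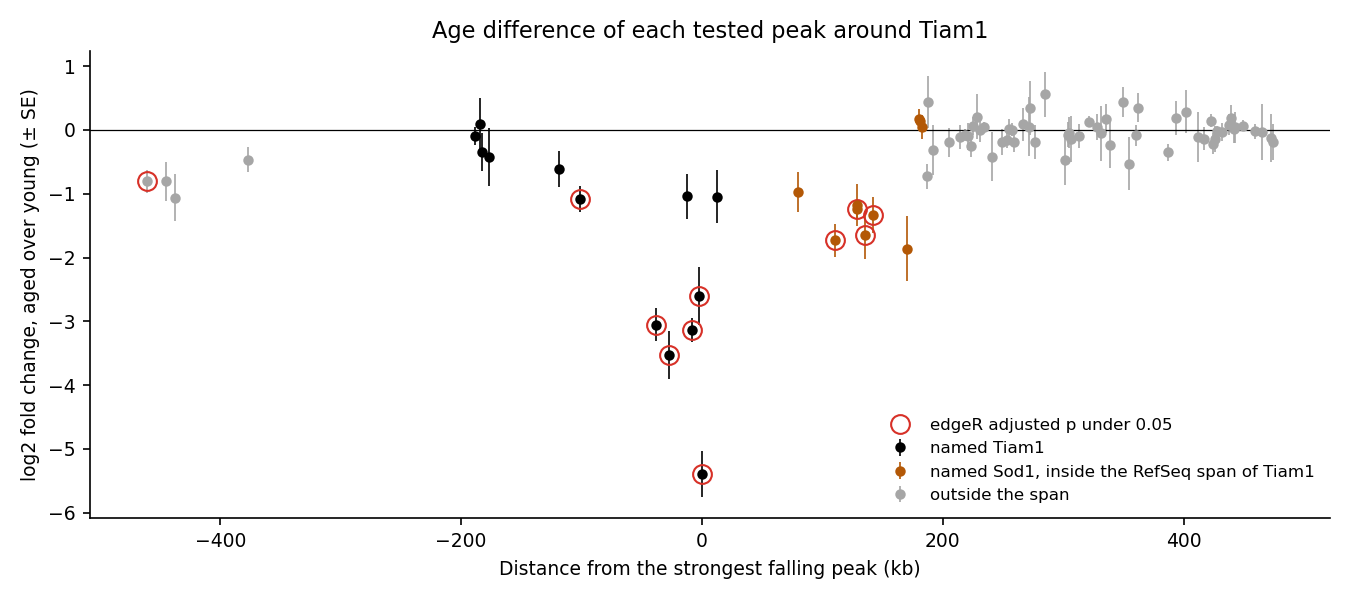
Log2 fold change (aged over young, bars ± SE) of each tested peak against its distance in kb from the strongest falling peak; black peaks are named Tiam1, orange ones are named Sod1 but lie inside the RefSeq span of Tiam1, grey ones lie outside and red circles mark an edgeR adjusted p under 0.05. All tested peaks from the intron 8 peak to the last circled orange one lie below 0, and those at the 5′ end and beyond scatter around 0.

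The 5 tested peaks outside Tiam1 whose profile over the 6 libraries was most like that of its strongest peak were named by the root mean square difference of centred log2 CPM. They were named for Gm16046 (0.942), Gm37782 (0.988), 9030624G23Rik (1.003), the inositol-phosphate synthase gene Isyna1 (1.08) and the cytochrome P450 gene Cyp4f15 (1.08). Their log2 fold changes ran from -3.42 to -3.08, smaller than that of the Tiam1 peak. They were picked for this likeness, so these values are descriptive.

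Vav3 was the sole other member with called peaks, and they moved in opposite directions. An intergenic peak 3.888 kb beyond the 3′ end of its RefSeq span (chr3:109689582-109690080) rose from 1.12, 2.12 and 1.16 CPM in young to 3.55, 4.02 and 4.35 CPM in aged libraries (log2 1.32, SE 0.23, edgeR adjusted p = 0.000651). Each aged library was above each young one, and the peak kept its call without any 1 library but not after all libraries were thinned to the depth of the shallowest (adjusted p = 0.116). An intron peak 12.1 kb inside that end (chr3:109672769-109673562) fell from 3.23, 3.10 and 3.38 CPM to 1.91, 1.52 and 1.86 CPM (log2 -0.87, SE 0.21, edgeR adjusted p = 0.0305). The ages did not overlap there either. This second call was less stable: DESeq2 gave an adjusted p of 0.136, thinning and the removal of any 1 of the 6 libraries also lost it (largest adjusted p 0.148), and the replicate block gave 0.00304. The gap between the peaks is 16.02 kb.

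None of the other Vav3 peaks passed the test. Of its 26 tested peaks 18 had a negative log2 fold change, as had 68616 of all 132055 tested peaks. An unadjusted edgeR p under 0.05 was found in 7 of the 26, a level that 9.71% of all tested peaks reached. In 6 of the 26 (23.1%) each aged library was below each young one, beside 7.09% of all tested peaks. These peaks share libraries and a locus and are not independent. The internal start printed above lay under a peak (chr3:109573714-109574077) with 15.2, 12.4 and 15.6 CPM in young and 12.0, 11.3 and 10.7 CPM in aged libraries (log2 -0.33, SE 0.13, adjusted p = 0.313). Its strongest peak, in an intron (chr3:109578237-109579250), had means of 27.9 and 25.2 CPM (log2 -0.15).

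Among the other exchange factors no peak was called. In Tiam2 9 of 20 tested peaks had a negative and 11 a positive log2 fold change. Its largest difference was at a weak intergenic peak (chr17:3252026-3252250) with 0.421, 0.265 and 0.264 CPM in young and 0.500, 1.11 and 0.621 CPM in aged libraries (log2 1.34, SE 0.47, adjusted p = 0.248). The strongest Tiam2 peak, also intergenic (chr17:3244994-3246275), had means of 43.5 and 46.5 CPM. The 8 tested Vav2 peaks ranged from -0.35 to 0.16 in log2 fold change and the 6 of Prex1 from -0.24 to 0.65.

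The DOCK family and its adaptor had no called peak among the 19 tested of Dock1, 22 of Dock4, 15 of Dock5 and 36 of Elmo1. Log2 fold changes ran from -0.54 to 0.60 in Dock1, from -0.68 to 0.53 in Dock4, from -0.47 to 0.58 in Dock5 and from -0.89 to 0.52 in Elmo1. In Dock4, Dock5 and Elmo1 the largest of these, in either direction, stood at weak peaks with means of 0.536 to 0.589 CPM over the 6 libraries. The Elmo1 intron peak with -0.89 (chr13:20117027-20117139) had means of 0.785 and 0.392 CPM (SE 0.44, adjusted p = 0.519). An Elmo1 intron peak at a higher level (chr13:20160218-20160991) had a mean of 16.5 CPM in young and 12.8 CPM in aged libraries, with each aged library below each young one (log2 -0.35, SE 0.12). It was not called (edgeR adjusted p = 0.233), but it was with the replicate block (adjusted p = 0.0204).

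Rac1, the GTPase on which the other members act, had 9 tested peaks. A positive log2 fold change was found in 8 of them, and in 63439 of all 132055 tested peaks. None was called, beside 1.13% of all tested peaks. Its median of 0.28 was the highest of the 10 genes, but the peaks named for it were weak (median level 0.595 CPM). The peak at its 5′ end, named RP23-158A20.7, is not among them (log2 0.11, SE 0.11), and there the ages overlapped. The peak at an annotated internal start (chr5:143518003-143518574) had 1.68, 1.89 and 2.00 CPM in young and 2.05, 2.82 and 2.41 CPM in aged libraries (log2 0.35, SE 0.23, adjusted p = 0.675). The groups did not overlap, but they came close.

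Counts were also summed over all peaks named for a gene, which weighs strong peaks most. The Tiam1 sums leave out the 13 Sod1-named peaks inside its RefSeq span. Among these is the peak at its 5′ end, with means of 93.9 CPM in young and 103.1 CPM in aged libraries. The Rac1 sums likewise leave out its 5′ end peak, named RP23-158A20.7 (means 21.6 and 23.4 CPM). That of Vav3, named Gm13865, is also left out (means 3.83 and 3.37 CPM). Of 30092 genes tested on such sums 1.59% were called (1.03% lower in aged), and of the 10 members no gene besides Tiam1 passed the threshold. Tiam1 was chosen by its peaks in this contrast, so its sums are given as a description. Tiam1 sums were 67.7, 55.5 and 81.8 CPM in young and 17.7, 17.6 and 16.9 CPM in aged libraries (log2 -1.97, SE 0.11, or -74.5%). Vav3 sums were 165.1, 151.1 and 167.4 CPM in young and 149.7, 148.6 and 141.9 CPM in aged libraries (log2 -0.13, SE 0.06, adjusted p = 0.409). Rac1 sums were 12.7, 11.8 and 11.8 CPM in young and 13.4, 13.7 and 14.0 CPM in aged libraries (log2 0.19, SE 0.11, adjusted p = 0.568). In both the ages did not overlap, but neither difference passed the test. Log2 fold changes of the other 7 sums lay between -0.08 (Elmo1) and 0.08 (Dock5), with adjusted p from 0.684 to 0.993. The ages did not overlap in the sums of Elmo1 (lower in aged) and Dock5 (higher in aged) either. How often sums do not overlap over all genes was not counted.

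**Figure D4:**
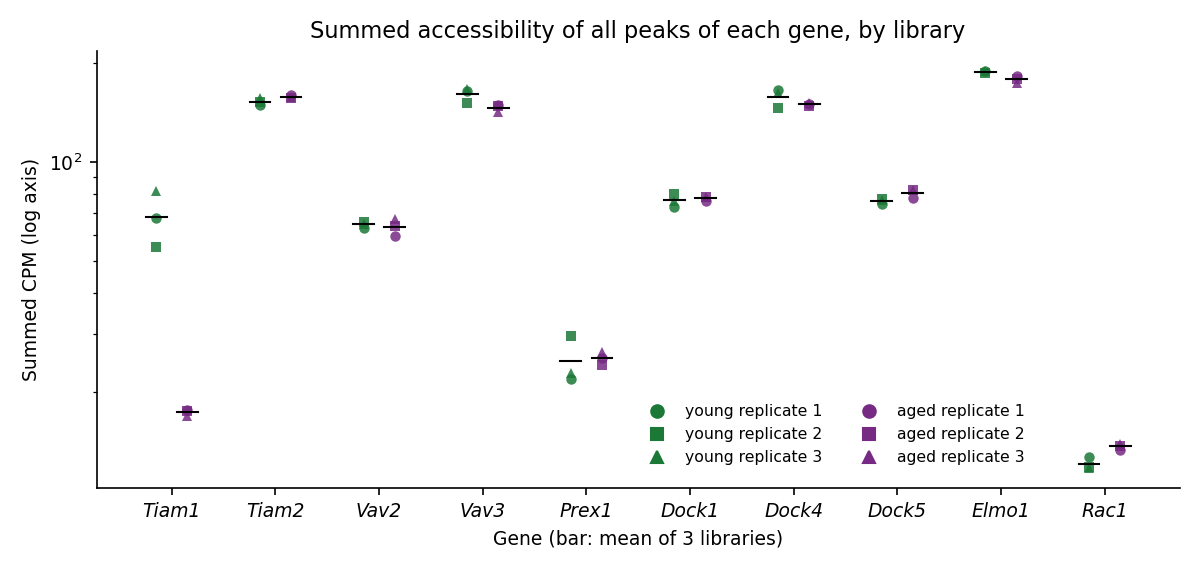
CPM summed over all peaks named for each gene (log axis) in each library; green is young, purple is aged, the symbol gives the replicate and the bar is the mean of 3 libraries. Tiam1 sums lie at 55.5 to 81.8 in young and 16.9 to 17.7 in aged libraries, and the ages of the other genes lie close together.

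The peaks at the RefSeq 5′ ends of the genes were compared next. For each gene the strongest peak within 2 kb of that end was taken, whatever its name. Per kb of peak width, mean levels over the 6 libraries ordered the genes as Tiam1 (74.8 CPM per kb), Dock4 (51.7), Vav2 (33.1), Dock5 (23.0), Rac1 (18.4), Elmo1 (15.05), Dock1 (13.4), Prex1 (12.6), Tiam2 (8.54) and Vav3 (3.37). The Dock4 peak (chr12:40445293-40446904), over the sequence printed above, had 95.7, 77.2 and 79.2 CPM in young and 83.3, 82.1 and 82.4 CPM in aged libraries (log2 -0.01, SE 0.08). Its ages overlapped, as they did at all 5′ ends but that of Dock5. Of all tested peaks, 7.09% had each aged library below each young one and 7.66% had each above. At Dock5 the means were 37.6 CPM in young and 40.9 CPM in aged libraries (log2 0.13, SE 0.09, adjusted p = 0.706). None of the 10 was called, beside 1.13% of all tested peaks, so the lack of a call says little. The log2 fold changes lay between -0.25 (Vav3) and 0.17 (Dock1).

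**Figure D5:**
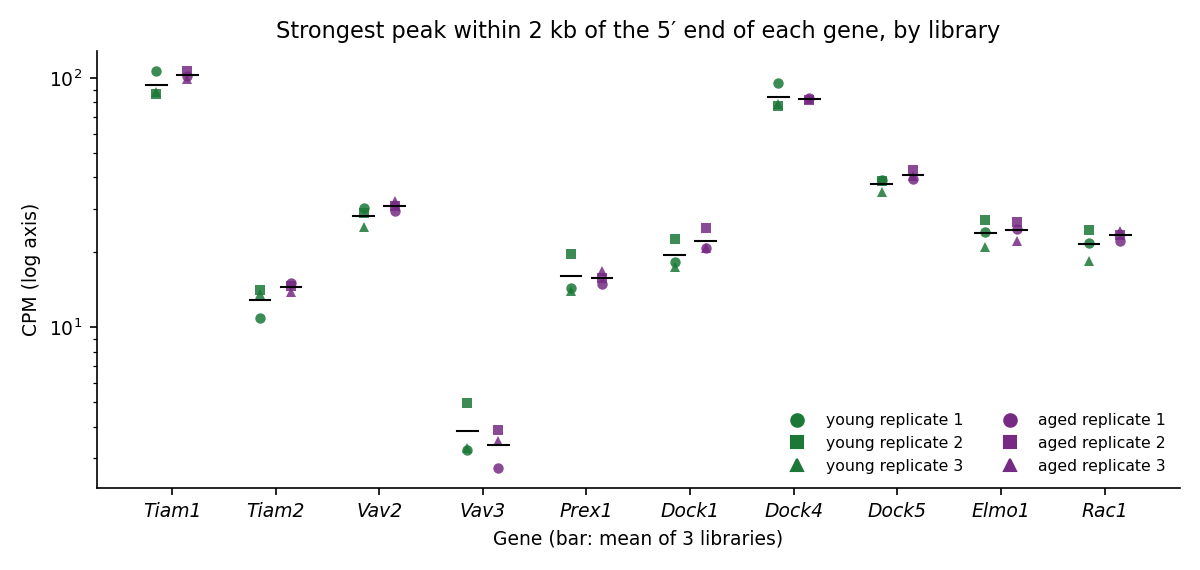
CPM (log axis) in each library at the strongest peak within 2 kb of the RefSeq 5′ end of each gene; green is young, purple is aged, the symbol gives the replicate and the bar is the mean of 3 libraries. The Tiam1 means are 93.9 (young) and 103.1 (aged), and the ages overlap at all genes but Dock5.

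Passage was not used to choose the genes, and its trend was tested beside age. No member peak was called for passage, Tiam1 included, where 0.00303% of all tested peaks were (4 of 132055). Of the 174 member peaks 6 had an unadjusted p under 0.05, beside 5.27% of all tested peaks, and DESeq2 called none, with 3 at an unadjusted p under 0.05. The smallest adjusted p belonged to an intergenic Dock5 peak (chr14:67941001-67941465; log2 -0.44 per passage, edgeR adjusted p = 0.446). At the strongest Tiam1 peak the trend was -0.21 per passage (SE 0.17, adjusted p = 0.991). With 3 passages that coincide with the replicate numbers, a small trend was not detectable.

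Among 67 other genes of the Rac network listed by role, 62 had a peak, and 6 of 430 tested peaks (1.40%) were called, all higher in aged libraries. This is near the 1.13% called, and 0.619% called higher, among all tested peaks, so the counts by role below are descriptions of single peaks. Of the exchange factors and adaptors 1 of 207 peaks rose, near Def6 (log2 0.76, adjusted p = 0.0236). Of the effectors 3 of 96 rose. An intron peak of Iqgap1, a scaffold protein that binds active Rac and Cdc42 (chr7:80774135-80774513), rose from 1.26, 1.44 and 1.58 CPM to 4.59, 4.90 and 4.27 CPM (log2 1.64, SE 0.21, adjusted p = 4.64e-06). No young library came near an aged one there. A promoter peak of Pak6, a kinase of the p21-activated family (chr2:118663964-118664271), rose from a mean of 7.63 to 12.4 CPM (log2 0.69, adjusted p = 0.00264). A peak near Wasf2, a subunit of the actin-nucleating WAVE complex, had a log2 fold change of 0.95 (adjusted p = 0.0402). Of the inactivators 2 of 81 rose, an intron peak of Bcr (log2 0.72, adjusted p = 0.0120) and a promoter peak of Srgap3 (log2 0.81, adjusted p = 0.0401), both genes of GTPase-activating proteins. Medians of these 3 roles lay between -0.06 and 0.04. DESeq2 did not call the peaks of Def6, Srgap3 and Wasf2, and the count fell to 2 without aged replicate 1 and also without aged replicate 3.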

How the data were processed

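Per the file headers, the deposited values are raw counts per consensus peak from featureCounts 2.0.1, with 1 column per library, and the authors' annotation gives each peak a class and the gene of the nearest start site. Per the submitters' processing notes, the build was GRCm38 and reads were trimmed with Trim Galore 0.6.4, aligned with BWA 0.7.17-r1188, filtered with SAMtools 1.10 and Picard 2.23.1, and peaks were called with MACS2 2.2.7.1. Handling of the Tn5 offset and of duplicates, and whether reads or fragments were counted, are not given in the sources used here, and without molecular identifiers counts are not independent molecules.

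The age contrast was fitted in edgeR 4.0.16 under R 4.3.3 (quasi-likelihood F test, robust dispersions, TMM factors, filterByExpr at a minimum count of 10), with Benjamini-Hochberg adjustment over all 132055 peaks tested (24678 left out). SE is the absolute log2 fold change divided by the square root of F. CPM were computed from the deposited counts. On simulated data for this comparison (132055 peaks, 100 changed per fold), 53% of peaks changed by 1 on the log2 scale and 90% of those changed by 2 were recovered. Of 150 calls there 7 were false. The simulated counts followed the trend of dispersion with level, with no spread particular to a peak and no replicate effect. Recovery in the real libraries may therefore be lower. Sums per gene and the passage trend, beside age, were fitted likewise.

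Named peaks were, for each of the 10 genes, the strongest within 1 kb of an annotated start, all called ones and the one with the largest log2 fold change. Network genes were named where a peak was called, and other strong peaks were named after their values were seen. The members, lists and rules were chosen with earlier results of these data known. In the titles a replicate number stands for the same culture code and passage at both ages and was read as a pairing. Within these pairs deviations from group means correlated weakly, at r = 0.0738, 0.126 and 0.144. Of the aged libraries, each young one correlated best with that of its own number. Gene spans and promoters came from RefSeq tables of GRCm38.p6, and sequences of peaks were not used here.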

Additional observations from a re-analysis of the deposited data

How the results depend on the processing

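The 8 called member peaks kept their direction in each alternative in which they were tested, which for the short Tiam1 peak at chr16:89960685-89960789 leaves out thinning and the minimum count of 30. Of all peaks, 1491 were called, 901 by DESeq2 1.42.0, 648 after thinning all libraries to 7278161 counts and 3523 with the replicate block, and 830 to 1902 when 1 library was left out (830 without aged replicate 3). The 8 calls among members became 5 after thinning, 9 with the replicate block and 7 in each fit without 1 library. Tiam1 kept its 6 in each of the latter. These fits reuse the libraries that led to its choice, so the counts and directions of its peaks are descriptive here too. Without Tiam1 the 2 calls became 1 in DESeq2 and in each fit without 1 library, 0 after thinning and 3 with the block. Gene sums gave 1 call of 10 in all settings, that of Tiam1, which is likewise a description. The 10 calls inside the RefSeq span of Tiam1, a set chosen after seeing the data, became 8 in DESeq2, 6 after thinning and 12 with the replicate block. The 6 network calls became 3 in DESeq2, 8 with the block and 2 to 6 without 1 library (2 without aged replicate 1 or aged replicate 3). The 4 passage calls over all peaks became 0 in DESeq2 (2272 at an unadjusted p under 0.05), 32 with no filter, 0 with a minimum count of 30 (4728 unadjusted) and 7 after thinning, and 0 to 53 without 1 library (0 without young replicate 1, 53 without young replicate 2). No member peak was called for passage in any setting. Apart from the Elmo1 intron peak and the counts above, the replicate block changed no call of a named member peak. Depth was limited by young replicate 1.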
